A study of Mus musculus with 5 samples.

Results

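RNA Polymerase II ChIP-Seq of Parp14+/+ Th2 cells cultured with the ADP-ribosyltransferase (ART) inhibitor PJ34 was compared with that of Parp14+/+ Th2 cells cultured without it. Genes were taken as members when their peak heights, added over the gene, reached 50 in at least 1 of these 2 libraries. They came to 636 of the 9876 distinct genes of the deposited table, or 718 of its 11608 genes before neighbours with identical values were counted once. A member rests on the regions within 2.5 kb upstream to 5 kb downstream of its gene, so close neighbours share regions, and the 636 members lay at 558 loci that shared none. Of the members, 440 reached 50 in both libraries, 77 in Parp14+/+ alone and 119 in Parp14+/+ + PJ34 alone, and a member that passed in 1 library alone had to be higher there.

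Naïve CD4+ T cells from the spleens of C57BL/6 mice aged 6 to 8 weeks were activated through CD3 and CD28 for 3 days with IL-4 at 10 ng/ml and a neutralizing antibody to interferon-γ, and expanded for 4 days with IL-2 at 50 U/ml and IL-4. Chromatin was precipitated with an antibody to RNA Polymerase II carrying phosphate on serine 2 of its C-terminal repeats. PJ34 was used at 10 µM by the sample labels, which place it on differentiated cells, and at 5 µM by the study's methods, which place it in the culture. The 2 libraries that carry the comparison were Parp14+/+ and Parp14+/+ + PJ34. The 2 libraries from Parp14-/- mice, Parp14-/- and Parp14-/- + PJ34, are set beside them and share no library with them. There was 1 library in each group, so no difference has a replicate check and no p-value is given.

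ADP-ribosyltransferases of the PARP family attach ADP-ribose from NAD to proteins, and PJ34 occupies the NAD pocket of several members, Parp1 among them. PARP-14 is a family member that binds STAT6, the factor that IL-4 signaling brings to the nucleus in Th2 cells. Serine 2 phosphorylation marks polymerase in productive elongation and builds up towards the 3′ end of genes and past it, so the height of this signal follows transcription through a gene and not only its initiation.

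Each library was reduced by the authors to 8.2 M alignments. A height counts the fragments stacked at the highest point of a region, and the summed height adds these over the active regions of a gene. Ratios of Parp14+/+ + PJ34 to Parp14+/+ were divided by 1.05, their median over the 9813 distinct genes with a height above 0 in both libraries, and these scaled ratios carry exact binomial 95% intervals that cover counting error only. Of 9 Th2 marker genes, all had an enriched interval in both libraries, and their heights per region summed to 385 without and 337 with PJ34. The 4 Th1 marker genes of the table had intervals in both as well, and their heights summed to 92.9 and 74.6, led by Il12rb2 at 37 and 25 and with Stat4 the other way at 5.89 and 7.56. Among 5 B cell markers only Cd79a had an interval, at 38 and 36, and Cd79b, Ms4a1 and Pax5 stood between 4 and 6 in both libraries. The 2 Treg and 3 NK markers were not among the genes of the table. Of 6 T cell markers 5 were, at heights per region from 5.5 to 24, all 5 with an interval without PJ34 and 4 with it. The myeloid marker Cd68 shares its region with Eif4a1, at 80 and 52, Csf1r had an interval in both libraries at 8 and 8.5, and Itgam had none at 1 and 4. Fewer cells of a type and less polymerase per cell cannot be told apart in these bulk cultures.

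The members as a group were centred on 1. Their median scaled ratio was 0.992 (95% interval of the median 0.984 to 1.01), with 311 members above 1 and 324 below, and single members ran from 0.336 at Nr4a1 to 2.24 at Shisa5. The study set bounds of 0.83 and 1.2 on the ratio of average peak values, among genes already selected as dependent on PARP-14. Genes outside them were taken to depend on ART activity. Here the same bounds were set on scaled ratios, and without that selection. By these bounds 79 members were higher and 114 lower, 12.4% and 17.9% of the members or 30.3% in all, where the same bounds took in 49.8% of all distinct genes (25.5% higher and 24.3% lower). Which direction held more members turned with the settings: without scaling 120 members were higher and 78 lower, and with a minimum height of 100 in place of 50 there were 10 and 4. At the low heights of most genes in the table, whose median summed height was 14 without and 15 with PJ34, a few fragments carry a gene past such bounds. The counting interval excluded 1 in 36 members (5.66%), 9 of them higher (1.42%) and 27 lower (4.25%). Over all distinct genes the share was 1.03% (0.438% higher and 0.591% lower). Many of the 36 reached 50 in 1 library alone and so had to be higher there. Among the higher members these were Shisa5, at 34 without and 80 with PJ34, Luc7l, Cd2, Wiz and Sipa1l1. Among the lower members they include Nr4a1, at 51 and 18, Rpl13, Fosl2, Cdkn1a, Fbl and the regions of U2af2 and Tnfrsf4. For all of these the direction was set by the minimum. With a minimum of 100 on the sum of both libraries, which favours neither, 5 intervals lay above 1 and 20 below (4.72% of 530 members). A 95% interval leaves out the true value in up to 5% of genes by its construction if heights are counts, which a maximum is not strictly. How many of the 36 counting error alone would give was not tested. The 9 higher members lay at 8 loci and the 27 lower members at 20. In the Parp14-/- pair the intervals of 25 members excluded 1 (3.93%), where 1.04% of all distinct genes did.

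**Figure D1:**
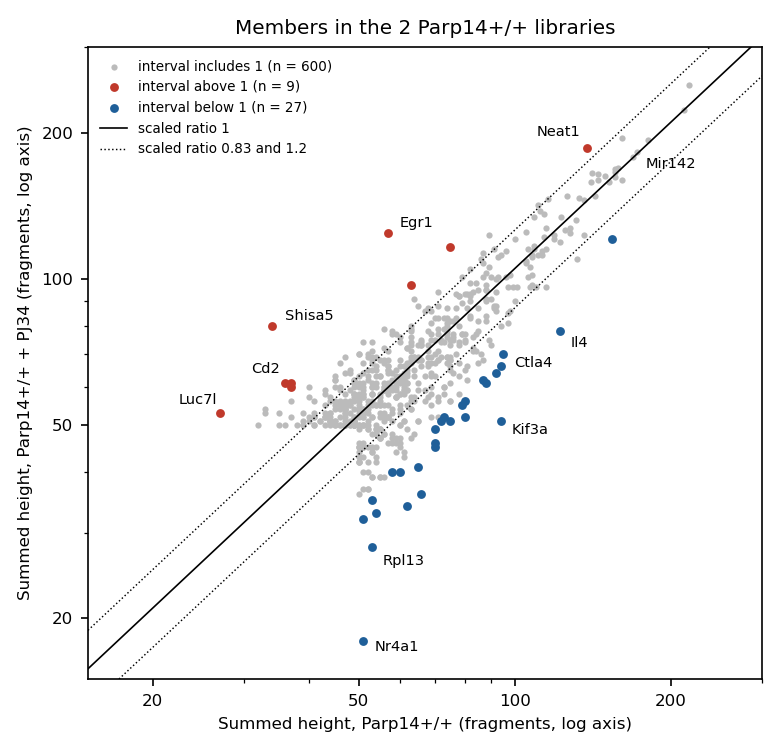
Summed height of each of the 636 members in Parp14+/+ (horizontal, fragments, log axis) and in Parp14+/+ + PJ34 (vertical, fragments, log axis). The solid line is a scaled ratio of 1 and the dotted lines are 0.83 and 1.2; the 9 red and 27 blue points have counting intervals above and below 1, with Egr1 and Shisa5 farthest above the line and Nr4a1 farthest below it.

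The IL-4 locus gave the clearest lower signal among the Th2 genes. Il4 (gene identifier 16189, minus strand of chromosome 11, 53425970 to 53432167 in mm9) encodes the cytokine that drives Th2 differentiation. Its summed height was 122 without and 78 with PJ34 in Parp14+/+ cells, then 58 and 36 in Parp14-/- cells. The scaled ratio was 0.609 (0.452 to 0.816) in the Parp14+/+ pair and 0.663 (0.425 to 1.02) in the Parp14-/- pair, so the library with PJ34 was the lower of each pair. This value adds 2 regions, 1 over Il4 itself from 53416051 to 53433750 and 1 over Il13 and the 3′ part of Rad50. In the Il4 region alone the heights were 84, 45, 41 and 26 in the same order, and the scaled ratios were 0.510 (0.347 to 0.741) and 0.678 (0.398 to 1.14). The highest point lay just past the listed 3′ end of Il4 in both Parp14+/+ libraries, in an intron of a longer Il4 transcript of GENCODE. Kif3a, the kinesin gene that ends next to Il4, had the same region as 1 of its 2, and its 94 and 51 are therefore no separate result. In the second region, which is the only one of Il13, the heights were 38 and 33, and the ratio of 0.827 (0.503 to 1.35) included 1. Il5 (chromosome 11, 53534296 to 53538605) stood at 21 in both Parp14+/+ libraries and at 4 and 6 in the Parp14-/- libraries, and neither it nor Il13 reached the minimum for a member.

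The promoter of Il4 is shown because this gene led the lower Th2 signal and because STAT6 is the factor PARP-14 binds. Of the 2 start sites of Il4 in the RefSeq table, the one whose promoter held the motif is given. Its 250 upstream bases (GRCm38.p6, chr11:53618666-53618915, minus strand) include 1 match to TTCNNNNGAA, the palindrome with a 4-base spacer that STAT6 prefers, which starts 167 bases before the start site and is printed in capitals.
Il4 promoter: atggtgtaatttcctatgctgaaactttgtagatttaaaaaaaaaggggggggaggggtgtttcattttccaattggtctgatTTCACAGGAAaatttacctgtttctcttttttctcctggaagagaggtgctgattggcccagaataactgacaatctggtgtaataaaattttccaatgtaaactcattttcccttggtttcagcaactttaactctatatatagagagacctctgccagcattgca
The same 250 bases hold 5 matches to GGAAA, the core bound by NFAT, and 1 of these overlaps the palindrome. Searched on both strands, TTCNNNNGAA occurs in 5.85% of the 32851 promoters of the table and in 5.69% of the 721 promoters of 519 member genes that matched the table by symbol, and GGAAA in 55.6% and 53.7%. Binding of STAT6 was not measured in these libraries.

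Other genes of the Th2 list lay lower as well, by amounts within counting error. Of its 25 distinct genes with values, Il4 and Kif3a included, 22 had a scaled ratio below 1 and 3 above, with a median of 0.823. Of the 25 genes 9 were members, 8 below 1 and 1 above. Il4 shares regions with Kif3a and Rad50, so the 25 genes lay at 22 loci and the 9 members at 7, and not all are separate cases. Il4ra, the receptor chain through which IL-4 activates STAT6, had the tallest peak of them, 132 without and 110 with PJ34, with a ratio of 0.794 (0.611 to 1.03). Il24, an IL-10 family cytokine, stood at 78 and 63, a ratio of 0.769 (0.543 to 1.09). Il10, which shares its region with Mapkapk2, stood at 75 and 61, and Irf4, a factor needed for Th2 differentiation, at 59 and 47. Gata3, the master regulator of the lineage, was close to level, with 60 without and 58 with PJ34 and a ratio of 0.921 (0.631 to 1.34). Junb was the member above 1, at 65 and 73. In the Parp14-/- pair the median over the 25 genes was 0.891, with 18 below 1 and 7 above. The list was put together with earlier results on Il4, Il5 and Il13 in these libraries known, so its direction is no independent evidence.

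Immediate early genes, which switch on within minutes of a stimulus, held the lowest ratio of all members and the second highest. Nr4a1 (gene identifier 15370, plus strand of chromosome 15, 101097293 to 101105223) encodes an orphan nuclear receptor induced by the T cell receptor. Its summed height over 2 regions was 51 without and 18 with PJ34 in Parp14+/+ cells, then 36 and 32 in Parp14-/- cells. The ratio was 0.336 (0.185 to 0.585), the lowest of all members, and 0.950 (0.571 to 1.57) in the Parp14-/- pair. The highest point lay 826 bp past the gene's 3′ end in Parp14+/+, at 45 fragments, and 271 bp past it in Parp14+/+ + PJ34, at 14, and the interval covered the whole gene in both. Egr1, a zinc finger factor, differed in the other direction, with 57 without and 124 with PJ34 in Parp14+/+ cells, then 115 and 141 in Parp14-/- cells. Its ratio was 2.07 (1.50 to 2.89), and 1.31 (1.02 to 1.69) in the Parp14-/- pair, so that Parp14+/+ without PJ34 was the low library of the 4. Fosl2, a subunit of AP-1, stood at 65 and 41, a ratio of 0.601 (0.396 to 0.902), with 56 and 36 in the Parp14-/- pair (0.687, 0.439 to 1.06). The other 5 members of the list, Rgs1, Dusp2, Nr4a3, Ier2 and Junb, had intervals that included 1, at ratios from 0.861 to 1.22. Over all 38 genes of the list the median was 0.995, with 18 above 1 and 19 below, so the list showed no common direction.

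The promoter of Nr4a1 is shown as that of the member with the lowest ratio. In the 250 bases before its start site (RefSeq, GRCm38.p6, chr15:101266596-101266845, plus strand) TGACG, the core of the palindrome that CREB binds, occurs 4 times, each on the opposite strand as CGTCA (capitals), starting 233, 213, 69 and 40 bases before the start site.
Nr4a1 promoter: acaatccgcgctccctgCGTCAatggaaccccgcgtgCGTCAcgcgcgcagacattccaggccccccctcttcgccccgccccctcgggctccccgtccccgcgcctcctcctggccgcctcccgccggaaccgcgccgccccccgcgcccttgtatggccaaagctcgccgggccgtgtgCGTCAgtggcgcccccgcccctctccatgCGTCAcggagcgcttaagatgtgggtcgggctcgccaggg
At least 1 such match, on either strand, lies in 17.8% of all promoters of the table and in 26.2% of the promoters of members. None of the 4 overlaps a match to the other motifs searched.

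The remaining higher members were a mixed group. Shisa5, a p53-induced gene of apoptosis, had 34 without and 80 with PJ34 over 2 regions, the highest ratio of all members at 2.24 (1.48 to 3.45), with 46 and 47 in the Parp14-/- pair. Most of that difference came from a region of 1200 bp on chromosome 9 (108943201 to 108944400), where none of the 4 libraries had a called interval and the height was 3 without and 40 with PJ34. In its other region, whose summit lay over the neighbouring genes Atrip and Trex1, the heights were 31 and 40, and that ratio of 1.23 (0.750 to 2.03) included 1. Luc7l, which encodes a U1 snRNP-associated splicing protein, stood at 27 and 53 (1.87, 1.16 to 3.09). The region over its 5′ part had 12 and 35 (2.78, 1.41 to 5.88), and the region at its 3′ end 15 and 18. Its highest point therefore lay 2096 bp past the 3′ end without PJ34 and in the 5′ UTR with it. Actb, the cytoplasmic actin, shares 1 region with Fbxl18, whose height was 75 and 116 (1.47, 1.09 to 2.00) with a summit 1001 bp and 889 bp past the 3′ end of Actb. Cd2, an adhesion and costimulation receptor of T cells, rested on 1 region at 36 and 61 (1.61, 1.05 to 2.51). The summit lay 4397 bp past the 3′ end of Cd2 in Parp14+/+ and 7277 bp past it in Parp14+/+ + PJ34. Wiz, a zinc finger partner of the G9a methyltransferase, stood at 37 and 61, a ratio of 1.57 (1.03 to 2.43), and its tallest region, at the start of the neighbouring Akap8l, had 20 and 35 (1.67, 0.936 to 3.05). Sipa1l1, a regulator of Rap signaling, gave 37 and 60 over 12 regions, 11 of which had no called interval in either Parp14+/+ library, and the remaining 1 had 4 and 7.

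A locus of nuclear long non-coding RNAs also stood higher with PJ34. The deposited entry that spans Malat1 and Neat1 on chromosome 19 (5796401 to 5845579) had 138 without and 186 with PJ34, a ratio of 1.28 (1.02 to 1.61). In the Parp14-/- pair the library with PJ34 was the lower, 189 without and 158 with PJ34 (0.894, 0.719 to 1.11). Its region over Malat1 had 75 and 89. Its other region, which also counts as the 1 region of Frmd8, had 63 and 97, then 99 and 77 in the Parp14-/- pair, and its summit at position 5845441 lay in a non-coding exon of Neat1 in both Parp14+/+ libraries. Next in order, with intervals that just included 1, came Prkca at 89 and 123 (1.32, 0.994 to 1.75), the potassium channel gene Kcnq1 at 33 and 54 (1.56, 0.992 to 2.48) and the interferon-induced GTPase Gbp9 at 64 and 91 (1.35, 0.973 to 1.89). Most of the Gbp9 value came from the region of its neighbour Gbp4, at 50 and 70, so Gbp9 and Gbp4 are not separate results.

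Of the 27 lower members 2 were on the list of T cell receptor and costimulation genes, Ctla4 and the region of Tnfrsf4 and Tnfrsf18. Ctla4 (gene identifier 12477, chromosome 1, 60965869 to 60972674), the inhibitory counterpart of CD28, had 95 without and 70 with PJ34 in Parp14+/+ cells, then 67 and 58 in Parp14-/- cells, and ratios of 0.702 (0.508 to 0.966) and 0.925 (0.640 to 1.34). The region shared by Tnfrsf4 (OX40), Tnfrsf18 (GITR) and 3 other named genes stood at 70 and 46 (0.626, 0.422 to 0.921), with its summit in Tnfrsf4. Tnfsf11 (RANKL) gave 79 and 55 (0.663, 0.461 to 0.947), and 71 and 45 in the Parp14-/- pair. Ptpn22, a phosphatase that limits T cell receptor signaling, and its neighbour Rsbn1 shared a region at 80 and 56 whose summit lay at the start of Rsbn1, with 81 and 51 in the Parp14-/- pair. Of the 9 members on the costimulation list 7 lay below 1 and 2 above, with a median of 0.794, and Cd2 was the only 1 of them with an interval above 1. Icos stood at 60 and 47 (0.746, 0.498 to 1.11). Over all 38 listed genes of the table the median was 0.984, 16 above 1 and 22 below, and it was 1.03 without scaling.

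Among regulators downstream of these receptors, Nfkb1, the p105 and p50 subunit of NF-κB, had 92 and 64 in a region shared with Manba (0.663, 0.474 to 0.921). Its summit lay past the 3′ end in Parp14+/+ and in an intron of the gene in Parp14+/+ + PJ34. The inhibitor genes Nfkbia and Nfkbiz stood at 61 and 63 and at 63 and 76, and Relb at 62 and 61, so the 4 NF-κB members had a median ratio of 0.960, or 1.01 without scaling. Over the 22 listed NF-κB genes of the table the median was 0.888, with 8 above 1 and 14 below. Cish, the cytokine-induced STAT5 inhibitor, shared a region with Hemk1 at 87 without and 62 with PJ34 in Parp14+/+ cells, then 92 and 89 in Parp14-/- cells. Its ratio was 0.679 (0.482 to 0.951), and 1.03 in the Parp14-/- pair. Cdkn1a (p21), the cell cycle inhibitor under p53, stood at 54 and 33 (0.582, 0.366 to 0.914) and at 30 and 37 in the Parp14-/- pair. Itgav, the integrin αV chain, gave 75 and 51 (0.648, 0.445 to 0.937), and Rnf19b, a ubiquitin ligase of cytotoxic cells, 53 and 35.

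Another 6 lower entries had ratios from 0.657 to 0.678. They were the polarity gene Scrib with Puf60 and Nrbp2, the ubiquitin ligase adaptor gene Vprbp, the clathrin adaptor gene Ap1g1, and Fxr2 and Senp3 beside Eif4a1. Fxr2, at 94 and 66, and Senp3, at 88 and 61, include the Eif4a1 region at 80 and 52 and are therefore no separate result. Scrib likewise includes the region of Puf60 and Nrbp2. The summit at Scrib, of 70 and 49, lay 75 bp and 43 bp upstream of the gene. Ap1g1, at 58 and 40, was the borderline case, with an interval of 0.428 to 1.000 whose upper limit lay below 1 only before rounding. Vprbp and Ap1g1 were spread over 5 and 8 regions, and in the tallest of each the interval included 1, at 38 and 31 (0.777, 0.467 to 1.28) and at 13 and 11 (0.806, 0.327 to 1.95).

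**Figure D2:**
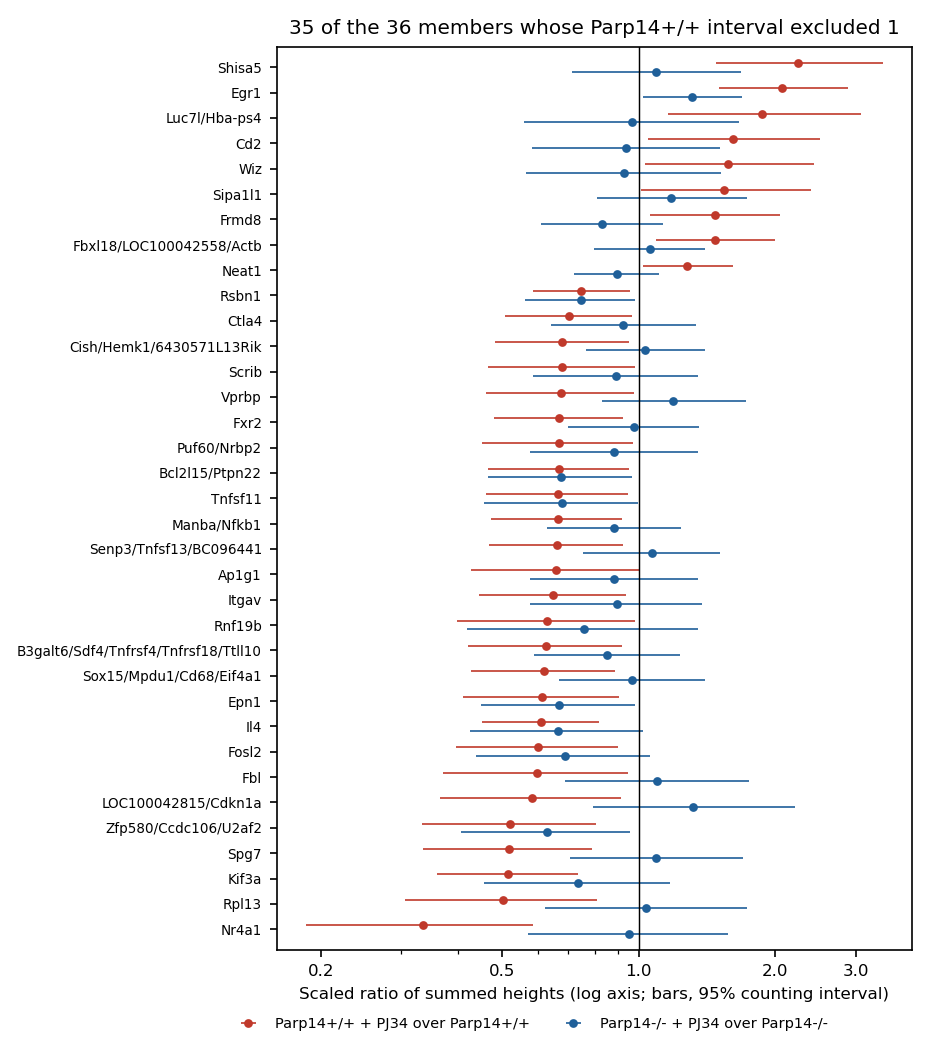
Scaled ratio with its 95% counting interval (log axis) for 35 of the 36 members whose Parp14+/+ interval excluded 1, in the Parp14+/+ pair (red) and, for the same members, in the Parp14-/- pair (blue). Of the 9 higher members 4 lay above 1 in the Parp14-/- pair and of the 26 lower members plotted 19 lay below 1.

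In the Parp14-/- pair, which was scaled by its own median of 0.935, 4 of the 9 higher and 19 of the 27 lower members lay on the same side of 1. Of all members 247 lay above and 389 below 1 in that pair, so a member chosen without regard to the Parp14+/+ pair was more often below 1 than above. Il4, Epn1, Fosl2, Rsbn1, Ptpn22 and Tnfsf11 had ratios from 0.663 to 0.746 there, and those of Epn1, Rsbn1, Ptpn22, Tnfsf11 and the U2af2 region had intervals below 1. Epn1 includes the U2af2 region, and Rsbn1 that of Ptpn22, so these are not separate results.

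Genes of the translation apparatus lay lower with PJ34 than the members as a whole. Ribosomal protein genes are short and heavily transcribed, and 7 of them, each with the neighbours in its region, were members. All 7 were below 1, with a median of 0.759. Rpl13 (chromosome 8, 125626316 to 125629140) had 53 without and 28 with PJ34 in Parp14+/+ cells, then 34 and 33 in Parp14-/- cells, with ratios of 0.503 (0.306 to 0.810) and 1.04 (0.623 to 1.73). Spg7, its neighbour, shares this region and had 66 and 36. Rpl3, Rpl24, Rpl4, Rpl35a and Rpl38 had ratios from 0.751 to 0.866 with intervals that included 1. Of all 81 ribosomal protein entries with values 68 lay below 1 and 12 above, with a median of 0.839, where 49.9% of all distinct genes lay below 1. The intervals of 6 of the 81 lay below 1 and of none above. Of the 9813 distinct genes 58 (0.591%) had intervals below 1 and 43 (0.438%) above. Intervals below 1 were commoner at taller peaks. They numbered 14 of 624 distinct genes at heights per region from 20 to 40 and 17 of 161 at 40 or more. The same 81 entries had a median of 1.07 in the Parp14-/- pair, 54 above 1 and 27 below.

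Translation factors followed at the level of the members. All 6 were below 1, with a median of 0.771, led by Eif4a1, the RNA helicase of the eIF4F complex, in the region with Cd68 and Mpdu1 at 80 and 52 (0.619, 0.428 to 0.889). Eef2 stood at 97 and 81 and Eef1a1 at 82 and 84. Over the 35 listed factors the median was 0.923, with 13 above 1 and 22 below. Fbl, the methyltransferase of box C/D snoRNPs, had 51 and 32 (0.598, 0.372 to 0.948), with its summit at the start of the neighbouring Dyrk1b. Gas5, a snoRNA host, stood at 53 and 39 (0.701, 0.451 to 1.08), and 14 of the 18 snoRNA and host entries lay below 1, with a median of 0.912. Of the splicing list 34 of 49 genes lay below 1, at a median of 0.896. The lowest was U2af2, the large subunit of the factor that reads the polypyrimidine tract, whose region reaches to the start of Epn1 at 62 and 34 (0.522, 0.333 to 0.806), and at 63 and 37 in the Parp14-/- pair (0.628, 0.407 to 0.957). Ddx5 was the 1 splicing member above 1, at 133 and 147.

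**Figure D3:**
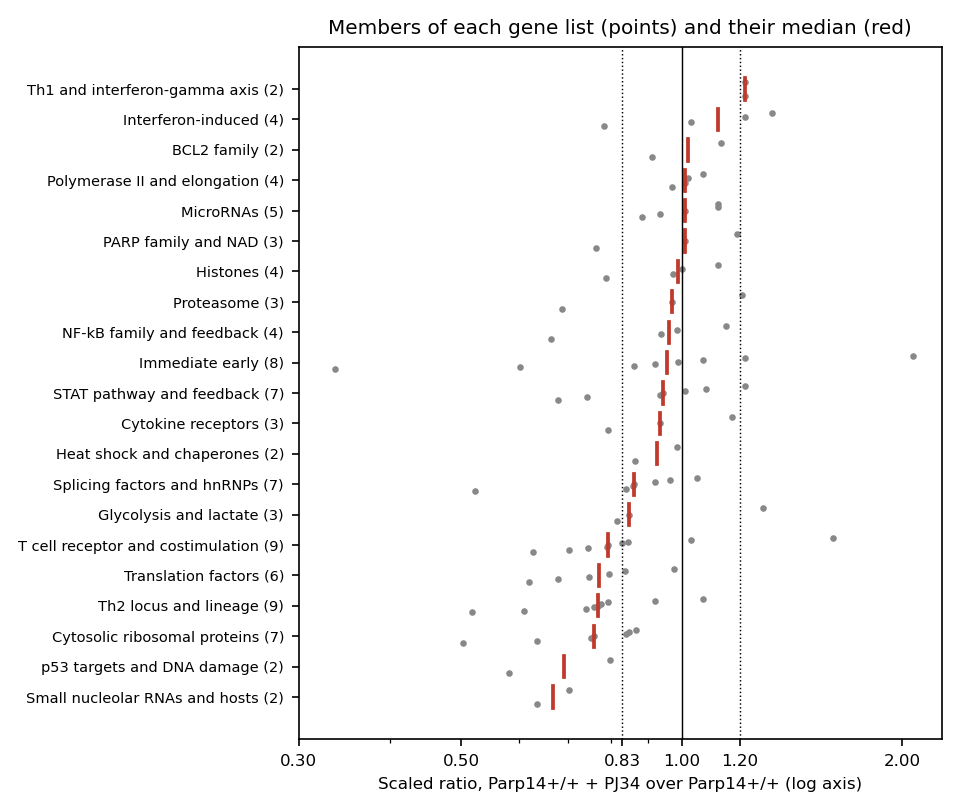
Scaled ratio (log axis) of each member of the lists with at least 2 members, 1 point a member, with the list's median as a red bar and its number of members in brackets. The 7 ribosomal protein and 6 translation factor members all lie below 1, and the 8 immediate early members run from 0.336 to 2.07.

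Interferon-related genes stood on the higher side, without an interval that excluded 1. Irf1 (gene identifier 16362, chromosome 11, 53583580 to 53590825), a factor that interferon-γ induces, had 86 without and 110 with PJ34 in Parp14+/+ cells, then 144 and 119 in Parp14-/- cells, and ratios of 1.22 (0.910 to 1.63) and 0.883 (0.687 to 1.13). Gbp4 stood at 50 and 70 (1.33, 0.914 to 1.96) and Irf9, the DNA-binding part of ISGF3, at 73 and 60 (0.783, 0.547 to 1.12), with 103 and 63 in the Parp14-/- pair, where its interval excluded 1 (0.654, 0.470 to 0.903). Over the 50 interferon-induced genes of the table the median was 1.19, with 36 above 1 and 14 below, and 20 above and 29 below in the Parp14-/- pair. Most of these genes are low: their median height per region was 10.2 without and 11.2 with PJ34.

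The STAT factors themselves showed no difference beyond counting error. Stat6 had 30 and 24 (0.762, 0.426 to 1.35) and Stat4 53 and 68 over 9 regions (1.22, 0.841 to 1.78). The region shared by Stat3 and Stat5a stood at 59 and 46 (0.743, 0.494 to 1.11). Socs1 and Socs3, which shut off JAK kinases, were level, at 53 and 52 and at 27 and 28. Jak2 was level at 107 and 106. Of the 2 start sites of Irf1 in the RefSeq table, one has the shorter STAT palindrome, TTCNNNGAA, once in the 250 bases before it (RefSeq, GRCm38.p6, chr11:53769764-53770013, plus strand), starting 90 bases before it, and it is shown beside that of Il4 for the different spacer.
Irf1 promoter: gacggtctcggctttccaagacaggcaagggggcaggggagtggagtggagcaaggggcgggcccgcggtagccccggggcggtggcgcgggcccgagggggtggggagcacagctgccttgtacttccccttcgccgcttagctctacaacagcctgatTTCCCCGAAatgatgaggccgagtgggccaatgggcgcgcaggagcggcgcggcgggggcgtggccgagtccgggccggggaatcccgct
TTCNNNGAA occurs in 7.02% of all promoters of the table and in 5.69% of those of members. This match overlaps 1 match to GGAAA.

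The 22 genes of the PARP family and of NAD metabolism had intervals that included 1 in the Parp14+/+ pair. Parp14 itself, on chromosome 16, stood at 24 and 33 (1.31, 0.751 to 2.32), Parp1 at 25 and 29, Parp2 at 13 and 16 and Parp9 at 22 and 23, all below the minimum for a member. The members Parp11, Tnks and Parp6 had 45 and 56, 62 and 66, and 71 and 57. The tallest interval counted for Tnks, at 41 and 46, had its summit downstream of the neighbouring Dusp4. At Parp6 no interval was called in either Parp14+/+ library. In the Parp14-/- pair Tnks stood at 71 and 92, with an interval above 1 (1.39, 1.01 to 1.92). Of the 22 genes 12 lay above and 10 below 1, with a median of 1.01. Polymerase II subunits and elongation factors gave a median of 0.978 over 31 genes, and the members Supt4h1, Brd2 and Aff1 had ratios from 0.971 to 1.07. Oxidative phosphorylation genes, 83 in the table, held no member and were evenly divided, 40 above 1 and 43 below. Histone entries lay above 1 in 23 of 38 cases, with a median of 1.11, and in 32 of 38 in the Parp14-/- pair. These 38 entries lay at only 21 loci, so many of them share regions and are not separate cases. In the glycolysis list 19 of 26 genes lay below 1. Of its 3 members Egln3 stood at 64 and 57 (0.848, 0.583 to 1.23), Pkm2 at 56 and 48 (0.816, 0.543 to 1.22) and Hif1a at 65 and 88 (1.29, 0.925 to 1.80).

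The 5 microRNA members had intervals that included 1, and Mir142 was among the tallest members. Mir142, a microRNA of blood cells, rested on 1 region at 172 without and 182 with PJ34 in Parp14+/+ cells, then 184 and 173 in Parp14-/- cells, a ratio of 1.01 (0.814 to 1.25). Mir21 stood at 78 and 92 (1.12, 0.822 to 1.54), and Mir155, which T cell activation induces, at 54 and 50 in a region with Mrpl39. The region with Mir29a and Mir29b-1 had 50 and 49. The mature sequences of these genes are given from RefSeq (GRCm38.p6) with the seed, the bases from 2 to 8 that pair with targets, in capitals.
mmu-miR-142a-3p: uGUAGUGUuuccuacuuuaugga
mmu-miR-142a-5p: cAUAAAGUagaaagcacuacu
mmu-miR-21a-5p: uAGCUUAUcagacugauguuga
mmu-miR-155-5p: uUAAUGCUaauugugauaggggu
mmu-miR-29a-3p: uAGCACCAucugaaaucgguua
mmu-miR-29b-3p: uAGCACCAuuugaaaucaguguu
The last pair share the seed AGCACCA and come from the same region, and the other 4 have seeds of their own. The peaks measure polymerase at the host locus and not the mature microRNAs.

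Of the 5 members with the largest summed height in Parp14+/+, Mir142 and its neighbour Supt4h1 share 1 region, at 172 and 182. The others were long genes with many low regions. Snd1, a nuclease of the RNA-induced silencing complex, gave 217 and 251 over 34 regions (1.10, 0.915 to 1.33), Elmo1, which activates Rac, 212 and 223 over 25 (1.00, 0.826 to 1.21), and Bach2, a repressor of effector programs in T cells, 169 and 178 over 27 (1.00, 0.808 to 1.25). None of these intervals excluded 1, but that of Elmo1 in the Parp14-/- pair, at 230 and 175, lay below it (0.813, 0.664 to 0.994).

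How far members departed from 1 went with how their signal was spread. The 98 members with 1 region had a median ratio of 0.889, and 50% of them lay outside 0.83 to 1.2. The 93 members with 2 regions had a median of 0.938, and the 445 members with 3 or more a median of 1.01, with 23.4% outside the bounds. Of the 27 lower members 16 had 1 region, 7 had 2 and 4 had 3 or more. By height per region, the 305 members below 10 had a median of 1.02 (1.01 to 1.04), the 116 from 10 to 20 one of 0.984 (0.952 to 1.05), the 99 from 20 to 40 one of 0.952 (0.891 to 0.999), and the 116 members of at least 40 one of 0.920 (0.857 to 0.965). Taller peaks were thus lower with PJ34 relative to low ones. The same order held over all distinct genes, from 1.02 at heights below 10 to 0.952 at 20 to 40, so it was not particular to the members. The Parp14-/- medians of the 4 bins of members ran between 0.943 and 0.966. By gene length, the 73 members of 5 to 20 kb had a median of 0.873 (0.796 to 0.974), and the 411 of at least 50 kb one of 1.01 (0.991 to 1.03). What part height and length have in the values of the ribosomal protein and Th2 genes, whose median heights per region without PJ34 were 29 and 36, was not tested.

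**Figure D4:**
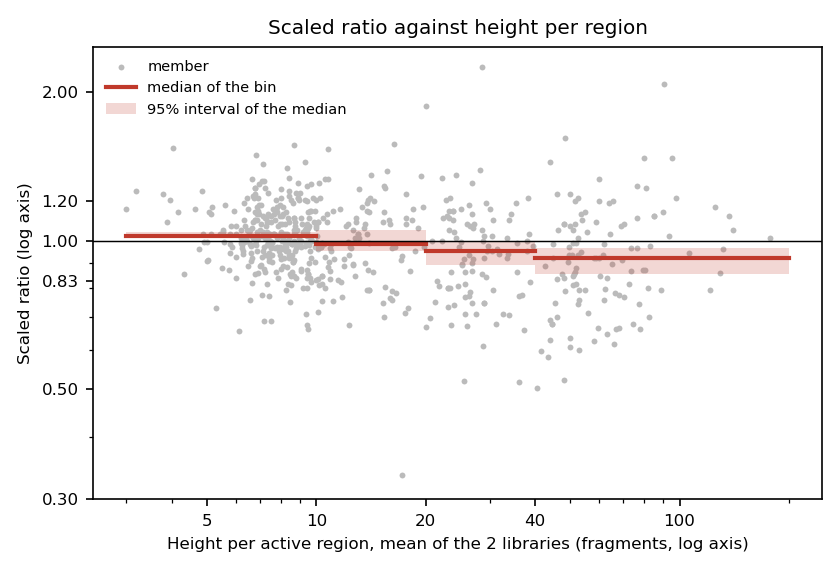
Scaled ratio of each member (vertical, log axis) against its height per active region, the mean of both Parp14+/+ libraries (horizontal, fragments, log axis). Red bars are the medians of 4 bins with their 95% intervals shaded, and they step down from 1.02 below 10 fragments to 0.920 at 40 or more.

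Beside the heights, the deposited intervals show how far along the genome the signal was called enriched. There were 11692 intervals in Parp14+/+ and 12014 in Parp14+/+ + PJ34, but they covered 98.1 Mb and 82.4 Mb, since the intervals with PJ34 were shorter, with a median of 4350 bp against 5250 bp. Intervals of at least 25 kb numbered 606 without and 384 with PJ34. The median height was 9 in both. Of the Parp14+/+ intervals 69.9% were overlapped by an interval of the other library, and of the Parp14+/+ + PJ34 intervals 79.3%. The 3517 and 2492 intervals found in 1 library alone were low, with a median height of 7 in each. As many as 2165 Parp14+/+ intervals met 2 or more intervals of Parp14+/+ + PJ34, and 1534 did so the other way round. Where 1 interval met 1 other, in 4084 cases, the scaled height ratio had a median of 1.00 (0.952 to 1.03) and the length ratio one of 0.909, with 2388 intervals shorter and 1560 longer with PJ34. The shortening lay in the low intervals: the median length ratio was 0.818 below a height of 10, 0.935 from 10 to 20 and 1.02 at 40 or more.

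Members followed the same pattern within their genes. With PJ34 the intervals covered less of the gene in 407 members, more in 121 and the same length in 108. That is 64.0% of the members, where 58.0% of the 5880 distinct genes with an interval in either library were covered less. The median share of the gene covered was 42.3% without and 27.4% with PJ34. In the 538 members of 10 kb or longer that had intervals in each Parp14+/+ library, the mean share covered was 47.2% without and 37.5% with PJ34 in Parp14+/+ cells, then 33.3% and 29.1% in Parp14-/- cells. With each gene cut into 10 equal parts, the part at the 5′ end had 46.6% without and 38.8% with PJ34, the part next to it 41.2% and 29.7%, and the part at the 3′ end 60.4% and 52.7%. All 10 parts were covered less with PJ34. Kif3a went from 22.1% to 1.75% covered, Bach2 from 9.25% to 1.84% and Elmo1 from 68.9% to 45.4%, while Il4, Nr4a1, Ctla4, Irf1 and Egr1 were covered whole in both libraries.

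Past the 3′ ends the 2 libraries came together. An interval held the 3′ end of 443 members in Parp14+/+ and of 393 in Parp14+/+ + PJ34. At 1.5 kb past the end, where the share of members under an interval was highest, it was 75.3% and 70.6%, and at 5 kb past 66.8% and 64.5%. From 7.5 kb on Parp14+/+ + PJ34 was the higher, with 53.3% against 51.7%, and at 10 kb 42.8% against 41.0%. Where an interval held the 3′ end in both, in 361 members, it ran on for a median of 7367 bp without and 8287 bp with PJ34, farther with PJ34 in 199 members and less far in 135. Over all distinct genes with an interval the order was the other way, 5442 bp and 4894 bp, with 1100 farther and 1311 less far. In the Parp14-/- pair 124 members ran farther with PJ34 and 161 less far. Intervals can belong to a neighbouring gene, and an interval ends where the caller's threshold ends, so these lengths are not lengths of transcripts. At the gene start 55.0% of members lay under an interval in Parp14+/+ and 50.5% in Parp14+/+ + PJ34.

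**Figure D5:**
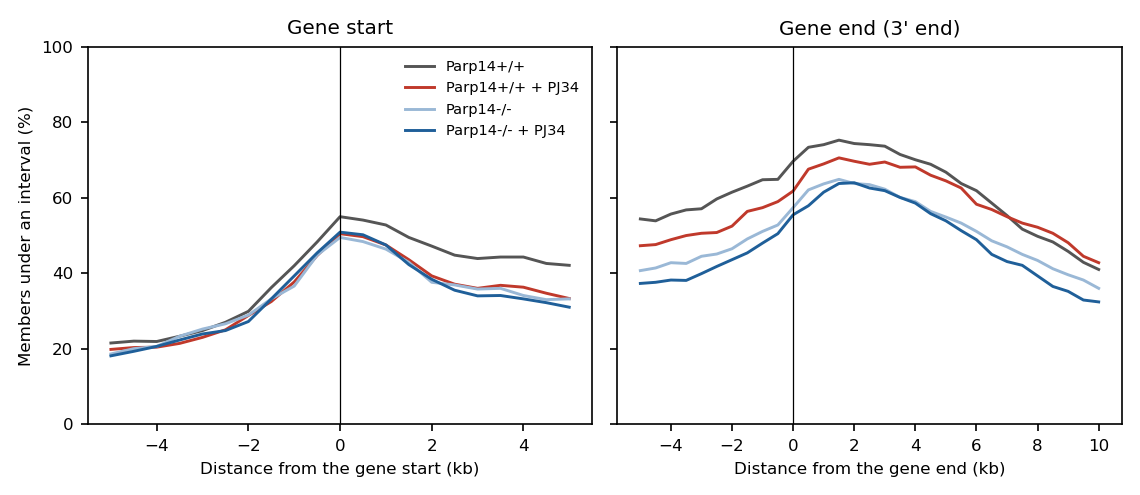
Share of the 636 members (vertical, %) with an enriched interval at each distance in kb from the gene start (left) and from the 3′ end (right), in steps of 500 bp, for the 4 libraries. Parp14+/+ (grey) lies above Parp14+/+ + PJ34 (red) inside the genes, the lines cross between 7 and 7.5 kb past the 3′ end, and both Parp14-/- libraries (blue) lie lower there.

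The highest points of the members' signal fell on the parts of the gene in these shares in each library. Of the 576 members with a summit in the window in Parp14+/+, 37.2% had it downstream of the gene's end, 38.4% in the body of the gene, 13.4% upstream of the start, 7.64% in the first kb and 3.47% in the last kb. With PJ34 the shares were 36.5%, 40.6%, 11.3%, 9.55% and 2.08%.

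The minimum of 50 fell in a dense part of the table. There were 39 distinct genes with exactly 50 in the higher library, such as Nek7 at 45 and 50, and 40 with 49, such as Irgm1 at 31 and 49 and Hnrnpk, which shares its value with Mir7-1, at 49 and 33.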

How the data were processed

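RNA Polymerase II phosphoserine 2 ChIP-Seq was analysed in Parp14+/+ and Parp14+/+ + PJ34 Th2 cells, 1 library each, with the 2 Parp14-/- libraries set beside them. Per the study's methods, reads of 36 nt, at least 28 M a library, were placed on mm9 with ELAND, and the authors then removed duplicates, reduced each library to 8.2 M alignments and called intervals with SICER (window 150 bp, fragment 150 bp, gap 450 bp) against Input. The deposited gene table gives the signal of a gene as the highest fragment pile-up in each of its active regions, averaged over them, and the deposited tracks give each interval with the height of its summit. Active regions were merged over 8 libraries, and 8 columns of per-sample values of other libraries were not used. The gene table also flags whether an interval was called. The active regions of a gene were found to be those from 2500 bp upstream to 5000 bp downstream of it, which returned the deposited number for 99.97% of genes.

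Summed height was the average times the number of regions. Adjacent genes with identical values and region numbers were counted once. Ratios were scaled by their median and given Clopper-Pearson 95% intervals, which treat a height as a count, although a maximum is not strictly one, and cover counting error only; medians carry order-statistic intervals. PCR duplicates were removed but the DNA had been amplified. The intervals were tried on simulated independent counts alone, so how they behave on summed maxima was not tested. Genes were named by their coordinates in GENCODE M1 (NCBIM37, the assembly of mm9), then by identifier or accession; 17 member genes stayed unnamed. Genes named in the text were the 12 members with the highest lower limit and the 12 with the lowest upper limit, the 5 tallest, up to 5 members of each of 23 gene lists, a fixed set of 14 genes and those at the minimum of 50; the rest of the 36 members whose interval excluded 1, Il10, Hnrnpk and the other members named beyond 5 of a list were added after their values were seen. Some genes that enter the counts are not reported here by name. The members and lists were chosen with earlier results of these data known. Alternatives changed the scaling, the minimum height, the bounds, the confidence level, the overlap, the minimum gene and interval lengths, the minimum interval height, the collapsing of genes and the measure (tallest interval over the gene), required an interval in both libraries, or took all listed genes. An alternative that took each member's tallest region alone was added after the data were seen. Python 3.11.15, numpy 2.4.6, pandas 2.3.3 and scipy 1.17.1 were used. Promoter and microRNA sequences came from RefSeq (GRCm38.p6) and were matched by symbol, and no coordinates were converted between builds.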

Additional observations from a re-analysis of the deposited data

Results flagged for a closer look

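At 13 of the 36 members whose Parp14+/+ interval excluded 1, the Parp14-/- pair lay on the other side of 1. The difference between the pairs was not tested, each pair has 1 library a side, and the Parp14-/- interval included 1 at each of the 13. Among the higher members the Parp14-/- ratio was 0.966 at Luc7l, 0.928 at Wiz, 0.939 at Cd2, 0.831 at Frmd8 and 0.894 at the Malat1 and Neat1 entry, and these last 2 share a region. Among the lower members it was 1.32 at the Cdkn1a entry and 1.03 at the region of Cish and Hemk1. Genes of translation and their neighbours included Rpl13 at 1.04, Spg7 at 1.09 in the same region, Fbl at 1.10, and Senp3 and Tnfsf13, which include the Eif4a1 region, at 1.07. Vprbp stood at 1.19.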

How the results depend on the processing

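No paired analysis was possible because each group holds 1 library, and for the same reason no replicate could be left out. All 36 members with an interval excluding 1 stayed on the same side of 1 without scaling. A scale of 1.05 could move none of them across 1. Those nearest to it were the Malat1 and Neat1 entry, from 1.28 to 1.35, and Rsbn1, from 0.748 to 0.786. The balance past the study's bounds, 79 above 1.2 and 114 below 0.83, turned without scaling and with a minimum of 100. Without scaling, 120 members lay above 1.2 and 78 below 0.83, the medians of the NF-κB, proteasome and histone members crossed 1 (0.960 to 1.01, 0.971 to 1.02 and 0.988 to 1.04), 14 intervals lay above 1, and the medians of the members and of the intervals matched one to one became 1.04 and 1.05. With a minimum height of 30, 361 members lay above 1.2 and 433 below 0.83, 794 in all, and 21 intervals lay above 1, of 58 that excluded it. With a minimum of 100 these were 10, 4 and 14, with 3 intervals above 1 and 2 below, 5 in all. A minimum of 100 on the sum of both libraries, which favours neither, left 5 intervals above 1 and 20 below. Bounds of 0.7 and 1.4 left 14 members above, 35 below and 49 in all. Intervals of 99% left 3 above 1, 7 below and 10 in all, and counting every gene gave 14, 46 and 60. With the tallest region of each member alone, an alternative chosen after seeing the data, 9 intervals lay above 1 and 30 below. By that measure 6 of the 9 higher and 25 of the 27 lower members still had intervals excluding 1, and Shisa5, Wiz, Sipa1l1, Ap1g1 and Vprbp did not. For the 4 higher and 16 lower members with 1 region the measure is the same value, so it could not change them. Requiring 50% overlap left 5893 intervals in Parp14+/+ alone and 3707 in Parp14+/+ + PJ34 alone, 9600 found in 1 library only, against 5799 and 8307 found in both. Intervals of height 15 or more gave 66 in Parp14+/+ alone and 82 in Parp14+/+ + PJ34 alone, 148 together, against 1677 and 1901 found in both. The cause of these shifts was not tested beyond what each setting changes by its construction. Of the remaining values for whole comparisons, 74 kept within the limits set for them. The mean difference in covered share was -9.7 percentage points, and -9.6 and -10.2 with genes from 5 kb and from 30 kb. At 1 library a group, depth limits the heights, since a gene at the table's median carries 14 or 15 fragments.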

Other observations

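The tallest interval found in Parp14+/+ + PJ34 alone reached 76 fragments in 450 bp on chromosome 3 (5860501 to 5860950, mm9), with no listed gene within 5 kb. The next, at 40 fragments in 300 bp, lay in Acacb, the mitochondrial acetyl-CoA carboxylase gene. The tallest found in Parp14+/+ alone reached 41 over 1950 bp on chromosome 9 (14725051 to 14727000), also with no gene within 5 kb.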
